A study of Mus musculus with 6 samples.

Results

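Hox genes were measured in basal keratinocytes of the embryonic mouse back skin, with a triple knockout (TKO) of the histone H3 lysine 9 (H3K9) methyltransferases Suv39h1, Suv39h2 and Setdb1 or with Suv39h2 alone deleted (Ctrl). The members were all protein-coding genes of the count table whose Ensembl identifier belongs to a Hoxa, Hoxb, Hoxc or Hoxd gene with a number, which gave 39 of 55536 listed genes, with 11 in cluster a, 10 in cluster b, 9 in cluster c and 9 in cluster d. Of these, 32 had enough counts to be tested and 23 had a Ctrl mean over 1 CPM, a unit that sets the counts of a gene against the TMM-normalized size of the library. Genes with the paralog numbers 5 to 8 were all above that level, whereas most genes of the posterior numbers 9 to 13 and most of cluster d were not. No Hox gene was called between TKO and Ctrl, beside 0.131% of all genes tested. Hoxc8, Hoxc5 and Hoxa5 had higher TKO values at an unadjusted p under 0.05 in the fit without the replicate number (4.06% of all genes tested), and Hoxb8, Hoxa7, Hoxb6 and Hoxa6 did as well once that number was fitted as a block, which made 7 (4.66%).

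Hox genes encode transcription factors that bind DNA through a homeodomain, encoded by the homeobox. They lie in clusters in which the order along the chromosome follows the order of their domains along the head to tail axis of the embryo, and genes with the same number in different clusters descend from a common ancestor. Their on and off states are kept by Polycomb and Trithorax complexes, they are induced early by retinoic acid, and in skin they carry positional identity, while Hoxc13 acts in hair and nail. H3K9 trimethylation is a different repressive mark, best known at heterochromatin and repeats.

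The series compared 3 Ctrl with 3 TKO libraries of RNA from cells sorted as Epcam+ α6+ from dorsal skin at embryonic day E16.5. Both groups carried Suv39h1 f/f, Suv39h2-/- and Setdb1 f/f, and both received tamoxifen, starting at E9.5. Ctrl embryos lacked K14CreERT2, the Cre recombinase that tamoxifen activates and that the keratin 14 promoter drives in the epidermis, and TKO embryos carried it, so that Suv39h2 was absent by design in the controls as well. In the study, loss of H3K9me3 could be mosaic because Cre did not reach every cell. The animals behind a library are known from the labels only by group, replicate number, a running sample code and a sex mark. That mark is F for Ctrl replicate 1 and TKO replicate 2 and M for the other 4. The p-values therefore measure the spread between these samples.

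Total counts were 102159175, 136515436 and 104422632 in Ctrl and 116308383, 108957256 and 118413082 in TKO, so that 3 counts, taken as the smallest detectable level, stood for 0.0232 to 0.0303 CPM. Setdb1, whose floxed allele recombination removes, stood at 125, 118 and 121 CPM in Ctrl and 95.2, 62.2 and 74.8 CPM in TKO. All TKO values lay under all Ctrl values, with a log2 fold change of -0.65 (SE 0.161) and an adjusted p of 0.286 (edgeR quasi-likelihood test). The values of Suv39h1 and Suv39h2 did not separate the groups, at 88.6, 78.5 and 84.0 CPM in Ctrl and 75.6, 68.9 and 89.4 CPM in TKO for Suv39h1 and 15.9, 17.1 and 15.6 CPM in Ctrl and 18.9, 16.0 and 17.5 CPM in TKO for Suv39h2. Counts over a whole gene include exons outside the deleted part, so that the last 2 genes check nothing about the genotype.

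The labelled cell type was checked against its markers. The 8 basal keratinocyte markers summed to 24316, 24096 and 18098 CPM in Ctrl and 15021, 16819 and 19223 CPM in TKO, with Krt5 the most abundant. Of 6 markers of differentiating keratinocytes 5 were found, and Lor, which had no match under that symbol, is missing from their sum. The 5, led by Krt1, were of like abundance, at 18616, 18214 and 20089 CPM in Ctrl and 16283, 12314 and 13063 CPM in TKO. In Ctrl replicate 3 and TKO replicate 1 they exceeded the basal sum. Markers of other skin cells were present too, and since dermal cells also express Hox genes their levels are given here. All 9 dermal fibroblast markers were found and none was at 0. They summed to 1713, 4335 and 3573 CPM in Ctrl and 2836, 2944 and 3256 CPM in TKO, with Col1a1, a fibrillar collagen, the most abundant at 367, 1314 and 1259.8 CPM in Ctrl and 799, 1025 and 1181 CPM in TKO. Ctrl replicate 1 was the lowest for that list. Of the 4 Merkel cell markers 3 were tested, and all 3 had lower TKO values at an unadjusted p under 0.05 (2.02% of all genes tested), with log2 fold changes of -1.92 for Krt8, -1.15 for Krt18 and -2.46 for Atoh1. Of the 8 skeletal muscle markers all 8 had higher values, 5 of them at an unadjusted p under 0.05 (4.06% of all genes tested with higher values). Myh3, an embryonic myosin, was called at 0.656, 0.758 and 0.501 CPM in Ctrl and 3.87, 3.46 and 4.36 CPM in TKO. Their sums were 3.78, 10.9 and 7.34 CPM in Ctrl and 35.6, 36.7 and 35.4 CPM in TKO, with Ttn the most abundant. DESeq2 called 5 of the 8 (Myh3, Acta1, Ttn, Actn2 and Myh8), beside 1.04% of all genes, and in the other marker lists Krt15 and Krt8. Krt15, a keratin of basal and follicle cells, and the spinous keratins Krt1 and Krt10 had lower TKO values at an unadjusted p under 0.05, with log2 fold changes of -1.18, -0.51 and -0.42, and the endothelial Cdh5 had higher values, with 0.91. With the replicate block the unadjusted p of Krt10 was 0.0524. No gene of the hair follicle, fibroblast, immune, melanocyte or Schwann cell lists had an unadjusted p under 0.05 without the block, and with it Shh, a signal of the hair placode, was higher at 0.0208. The part of these cells in the Hox values was not tested, and in bulk RNA fewer cells of a type and less RNA per cell cannot be told apart.

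In GRCm39, cluster a spans chr6:52132570-52237822, cluster b chr11:96085106-96259082, cluster c chr15:102829538-102945278 and cluster d chr2:74498654-74595486, from the first to the last member. The Hox genes that were on in Ctrl were mostly those with numbers 1 to 8. Among the numbers 1 to 4, 9 of 12 genes had a Ctrl mean over 1 CPM, among the numbers 5 to 8 all 11 did, and among the numbers 9 to 13 only Hoxa9, Hoxb9 and Hoxc13 of 16 did. By cluster, the count was 8 of 11 in a, 8 of 10 in b, 5 of 9 in c and 2 of 9 in d, the last being Hoxd4 and Hoxd8. The level dropped between neighbouring genes. In cluster a, Hoxa7 stood at 21.6 ± 7.16 CPM per kb in Ctrl and 27.0 ± 7.49 in TKO (SD, n = 3 in each group), Hoxa9 at 0.288 ± 0.166 CPM per kb in Ctrl and 0.398 ± 0.316 in TKO and Hoxa10 at 0.0890 ± 0.0640 CPM per kb in Ctrl and 0.0696 ± 0.0195 in TKO. Values per kb are CPM divided by the length of the gene's merged exons in kb, the scale on which different genes are compared.

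**Figure D1:**
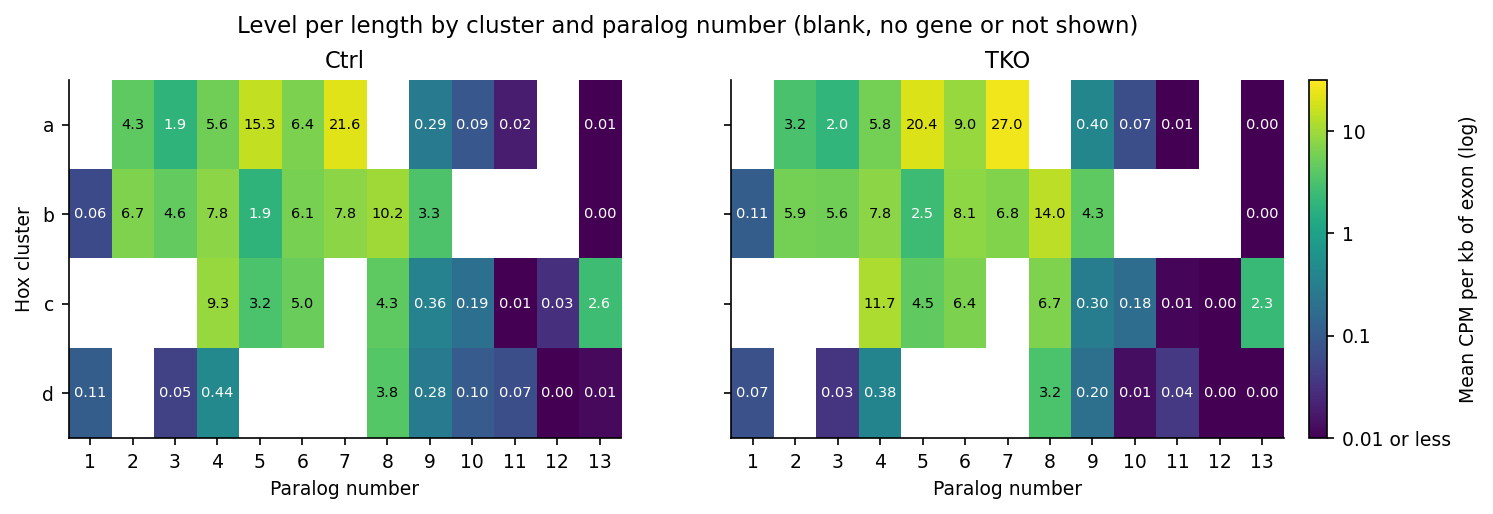
Mean level of 38 of the 39 Hox genes in CPM per kb of exon, on a log colour scale, by cluster (rows) and paralog number (columns), in Ctrl on the left and TKO on the right. Paralog numbers 5 to 8 and the low numbers of clusters a and b other than Hoxb1 are bright in both groups, and the numbers 10 to 13 are dark except for Hoxc13.

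Hoxa7 had the highest level over all 6 libraries at 24.3 CPM per kb and alone made up 17.3% of the summed Hox CPM. Hoxa5 followed at 17.8, Hoxb8 at 12.1, Hoxc4 at 10.5, Hoxb4 at 7.79, Hoxa6 at 7.70, Hoxb7 at 7.27, Hoxb6 at 7.09, Hoxb2 at 6.31, Hoxa4 at 5.69 and Hoxc6 at 5.67 CPM per kb. Every pair of neighbours among these 11 overlapped in the range of the libraries, and within the libraries Hoxa5 was above Hoxb8 in 6 of 6, while the order of the other neighbours held in 2 to 5 of 6. Cluster d had no member among them, and its highest, Hoxd8, reached 3.81 ± 1.65 CPM per kb in Ctrl and 3.21 ± 1.66 in TKO. The 39 genes together came to 372.9 ± 60.3 CPM over the Ctrl libraries and 438.5 ± 87.0 CPM over the TKO libraries (SD, n = 3 each), and the groups overlapped.

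Anterior genes, which pattern the hindbrain and neck region in the embryo, were on in these libraries of sorted back skin cells with exceptions. Hoxb1 was such an exception and stood at 0.172, 0.101 and 0.158 CPM in Ctrl and 0.238, 0.308 and 0.205 CPM in TKO, over the floor of 3 counts in every library, or at 0.0617 ± 0.0162 CPM per kb in Ctrl and 0.108 ± 0.0225 in TKO. Hoxc4 stood at 18.5, 24.5 and 28.3 CPM in Ctrl and 19.6, 25.9 and 44.5 CPM in TKO, with TKO replicate 3 the highest library. Hoxb4 stood at 22.5, 17.1 and 20.8 CPM in Ctrl and 16.9, 19.3 and 23.4 CPM in TKO, with overlapping groups. Hoxa2 had the lowest log2 fold change among members over 1 CPM, -0.45 (SE 0.281), at 10.1, 11.9 and 11.2 CPM in Ctrl and 5.86, 6.37 and 12.1 CPM in TKO, where TKO replicate 3 was above all Ctrl libraries and the other two were below them. Without TKO replicate 3 its log2 fold change was -0.86, and without TKO replicate 1 it was -0.27. Hoxd1 and Hoxd3 stayed between 0 and 0.588 CPM, and reads of Hoxd3 and Hoxd4 cannot be told apart over part of their length, since 38.2% of the exon bases of Hoxd3 and 52.0% of those of Hoxd4 lie in exons of other genes on the same strand.

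Among the posterior genes, Hoxc13, a regulator of hair and nail keratins, stood above its neighbours. It measured 5.11, 8.15 and 6.10 CPM in Ctrl and 3.67, 6.08 and 7.26 CPM in TKO, whereas Hoxc11 and Hoxc12 between it and Hoxc10 did not exceed 0.222 CPM in any library. The other genes with the number 13 were at or near the floor, with Hoxa13 at 0, 0.0309 and 0.0464 CPM in Ctrl and 0, 0 and 0 CPM in TKO, Hoxb13 at 0.0202, 0 and 0 CPM in Ctrl and 0, 0.0181 and 0.00822 CPM in TKO and Hoxd13 at 0, 0 and 0.0927 CPM in Ctrl and 0, 0 and 0 CPM in TKO. The 7 members not tested were Hoxa11, Hoxa13, Hoxb13, Hoxc11, Hoxc12, Hoxd12 and Hoxd13, and none had more than 22 counts in a library. No member was at 0 in all 6 libraries, although Hoxd12 had only 2 counts, both in TKO replicate 2.

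**Figure D2:**
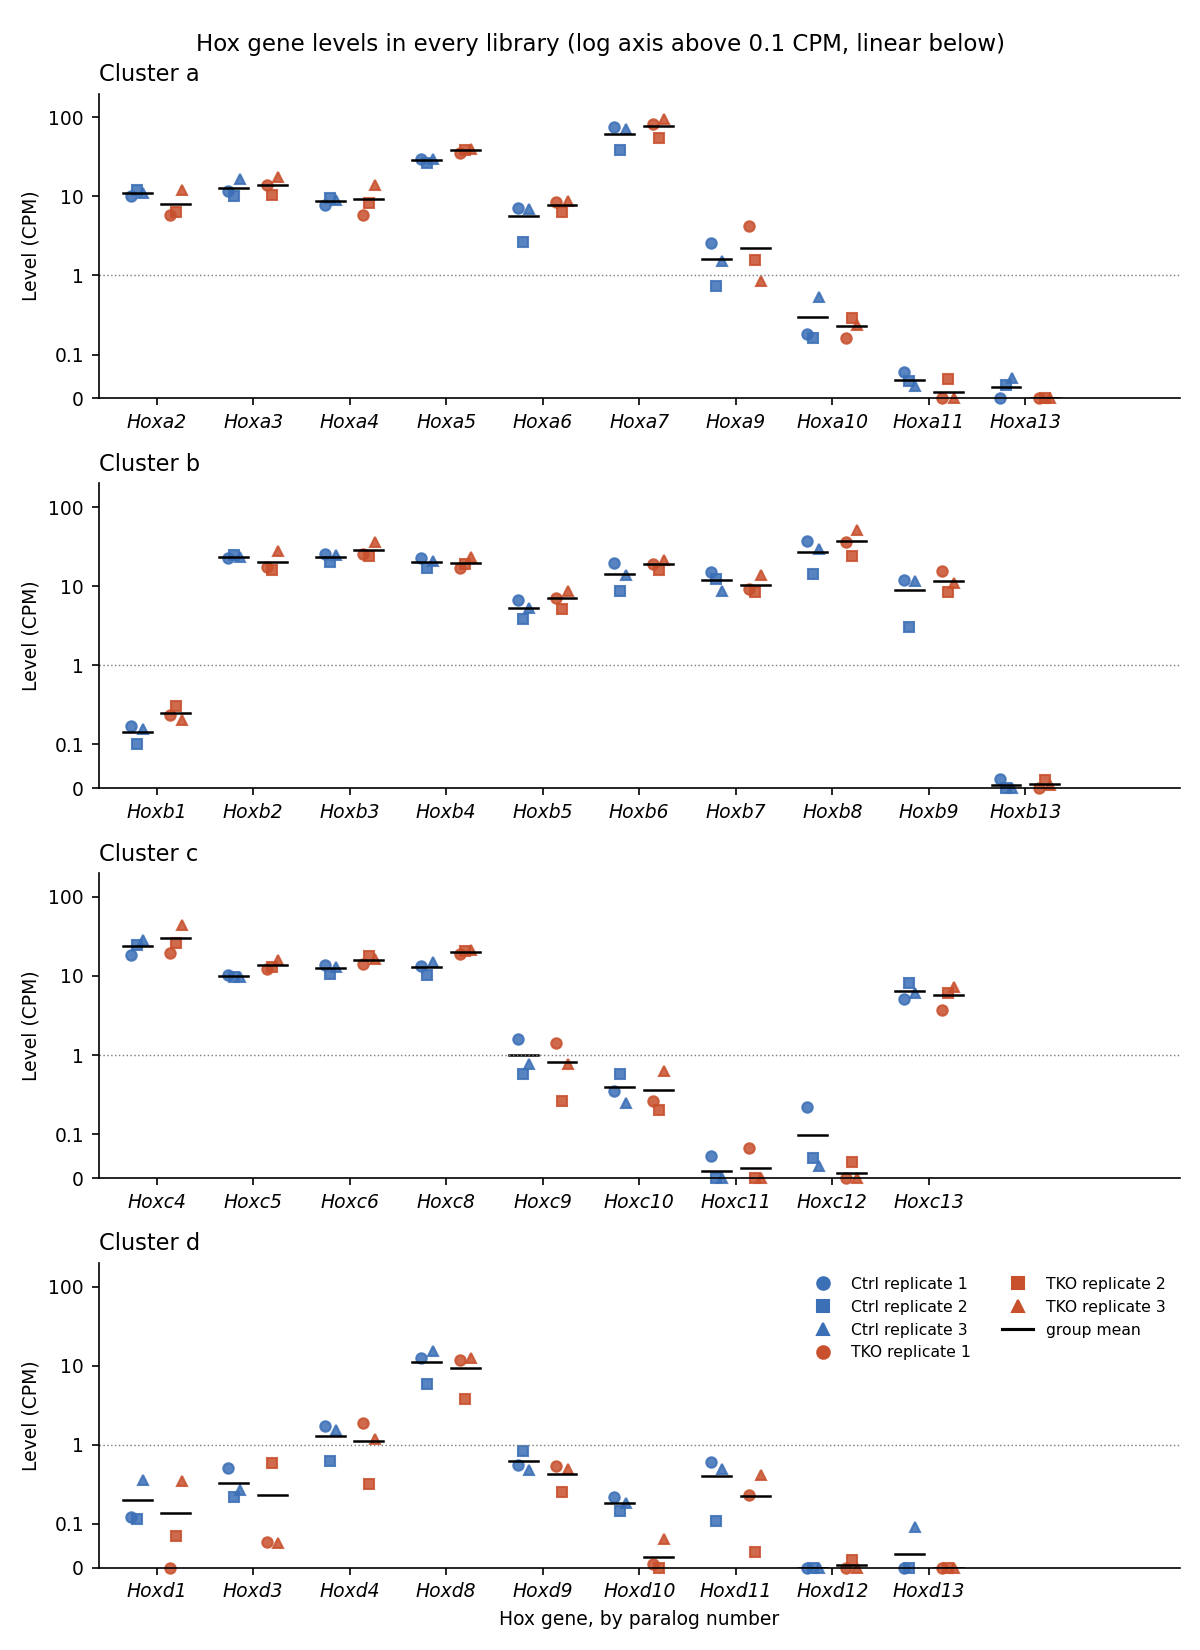
Level of 38 of the 39 Hox genes in CPM in each of the 6 libraries, by cluster and paralog number, on an axis that is logarithmic above 0.1 CPM and linear below. Points are libraries, with the replicate number as the shape, black bars are group means, and the dotted line marks 1 CPM, above which lie the Ctrl means of 22 of the genes drawn.

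The homeoboxes show how much sequence genes of the same number share while their levels differ. Each of the 39 homeoboxes is 180 coding bases in a single exon in GRCm39 (GENCODE vM39). Between genes of the same number they were identical at 67.2% to 93.9% of bases (median 80.6%, 42 pairs), and between genes of other numbers at 46.1% to 88.9% (median 60.6%, 699 pairs). The 4 genes with the number 13 are shown because only Hoxc13 of them was over 1 CPM, and those with the number 8 because Hoxc8 had the smallest p of the members. They are written from 5′ to 3′ on the coding strand, with capitals at positions where genes of that number differ.
Hoxa13 (chr6:52235908-52236087, - strand): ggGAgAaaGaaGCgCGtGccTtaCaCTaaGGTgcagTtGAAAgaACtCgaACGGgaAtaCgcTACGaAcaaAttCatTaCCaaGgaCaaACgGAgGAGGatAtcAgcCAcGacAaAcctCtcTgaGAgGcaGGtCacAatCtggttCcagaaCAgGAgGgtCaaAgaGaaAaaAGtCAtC
Hoxb13 (chr11:96086846-96087025, + strand): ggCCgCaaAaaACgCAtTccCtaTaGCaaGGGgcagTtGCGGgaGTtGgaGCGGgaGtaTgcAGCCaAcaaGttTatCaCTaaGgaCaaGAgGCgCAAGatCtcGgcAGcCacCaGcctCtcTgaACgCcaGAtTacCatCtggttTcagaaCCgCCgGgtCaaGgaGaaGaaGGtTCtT
Hoxc13 (chr15:102835645-102835824, + strand): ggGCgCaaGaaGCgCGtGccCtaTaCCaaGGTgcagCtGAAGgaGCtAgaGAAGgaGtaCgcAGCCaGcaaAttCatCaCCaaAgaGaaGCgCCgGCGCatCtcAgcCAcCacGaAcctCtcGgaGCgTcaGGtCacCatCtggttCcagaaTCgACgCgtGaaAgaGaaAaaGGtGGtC
Hoxd13 (chr2:74500274-74500453, + strand): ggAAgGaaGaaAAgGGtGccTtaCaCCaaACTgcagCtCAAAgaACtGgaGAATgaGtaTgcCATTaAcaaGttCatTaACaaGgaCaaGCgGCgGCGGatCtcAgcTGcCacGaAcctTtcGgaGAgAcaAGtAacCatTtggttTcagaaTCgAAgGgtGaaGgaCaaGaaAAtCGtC
Hoxb8 (chr11:96175000-96175179, + strand): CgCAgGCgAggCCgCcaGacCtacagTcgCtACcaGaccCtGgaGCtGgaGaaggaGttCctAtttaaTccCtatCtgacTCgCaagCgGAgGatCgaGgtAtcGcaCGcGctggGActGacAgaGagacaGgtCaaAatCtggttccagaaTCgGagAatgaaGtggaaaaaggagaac
Hoxc8 (chr15:102901003-102901182, + strand): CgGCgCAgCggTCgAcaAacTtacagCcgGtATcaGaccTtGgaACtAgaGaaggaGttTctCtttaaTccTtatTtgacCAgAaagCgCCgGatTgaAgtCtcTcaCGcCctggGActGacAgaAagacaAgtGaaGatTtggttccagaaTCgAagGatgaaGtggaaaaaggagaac
Hoxd8 (chr2:74536869-74537048, + strand): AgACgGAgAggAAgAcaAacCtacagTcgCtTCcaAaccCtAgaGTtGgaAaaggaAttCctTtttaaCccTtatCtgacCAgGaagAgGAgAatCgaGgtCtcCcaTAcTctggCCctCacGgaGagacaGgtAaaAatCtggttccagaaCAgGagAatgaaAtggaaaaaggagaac

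The homeobox of Hoxc13 was closest to that of Hoxa13, with 77.2% identity, and Hoxb13 and Hoxd13 were the least alike pair of any number at 67.2%. In the group with the number 8, Hoxb8 was 80.0% identical to Hoxc8 and 80.6% to Hoxd8.

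Whether loss of the methyltransferases moved the Hox genes was asked with a model fitted to all 20622 genes with enough counts, in which a gene was called when its adjusted p was under 0.05 and its log2 fold change was over 1 in size. It called 27 genes, all higher in TKO (0.131% of genes tested), and none of the 32 tested Hox genes was among them. DESeq2 called 214 genes (1.04%), and the fit with the replicate number as a block called 45 (0.218%), also with no Hox gene. The smallest adjusted p of a Hox gene was 0.377 with edgeR, 0.237 with the block and 0.0799 with DESeq2, each time for Hoxc8. The number of genes called over all genes moved when a library was left out, at 8, 7 and 8 without Ctrl replicates 1, 2 and 3 and at 25, 15 and 81 without TKO replicates 1, 2 and 3, and no Hox gene was called in any of these fits.

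At an unadjusted p under 0.05, 3 Hox genes were higher in TKO, beside 4.06% of all genes tested. In the other direction the 1 member was Hoxd10 (the share of all genes was 2.02%, and 2.98% with the replicate block). Nothing is read from it and it is described by its counts, since it reached the level of the low-count filter in 3 Ctrl libraries and in 0 TKO libraries and so had to be lower in TKO to be tested. With the replicate block 7 were higher (Hoxc8, Hoxa5, Hoxb8, Hoxc5, Hoxa7, Hoxb6 and Hoxa6), beside 4.66% of all genes. All 7 carry numbers from 5 to 8, and none has an adjusted p under 0.237 with the block.

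Hoxc8, a gene of the thoracic region, stood at 13.3, 10.1 and 15.2 CPM in Ctrl and 18.7, 20.8 and 21.5 CPM in TKO. It is ENSMUSG00000001657 in the table and spans chr15:102898851-102902543 on the + strand of GRCm39. Every TKO library lay above every Ctrl library, and the log2 fold change was 0.66 (SE 0.183), with an unadjusted p of 0.00499. Hoxa5, the most abundant of the 3, stood at 30.1, 26.4 and 29.4 CPM in Ctrl and 35.8, 39.1 and 39.8 CPM in TKO. Its groups did not overlap either, with a log2 fold change of 0.42 (SE 0.136), an unadjusted p of 0.0123 and an adjusted p of 0.574 in edgeR. Hoxc5 stood at 10.2, 9.75 and 9.83 CPM in Ctrl and 12.3, 13.1 and 15.9 CPM in TKO. Its Ctrl libraries were close together and all under the TKO libraries, with a log2 fold change of 0.47 (SE 0.173) and an unadjusted p of 0.0223, which became 0.0537 without Ctrl replicate 3 and 0.0723 without TKO replicate 3. Groups did not overlap for 5 Hox genes with higher TKO values, the other two being Hoxc6 and Hoxb1, beside 6.35% of all genes tested. Hoxc6 stood at 13.9, 10.7 and 12.9 CPM in Ctrl and 14.3, 17.8 and 16.2 CPM in TKO, with an interval of the log2 fold change from -0.024 to 0.75.

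Hoxd10, a posterior gene of trunk and limb, had 22, 19 and 20 counts in Ctrl and 1, 0 and 8 counts in TKO, or 0.222, 0.147 and 0.185 CPM in Ctrl and 0.00850, 0 and 0.0658 CPM in TKO. All TKO values were under all Ctrl values, and the counts in TKO replicates 1 and 2 were under the floor of 3. Its neighbours in cluster d with over 1 CPM, Hoxd4 and Hoxd8, had overlapping groups, with Hoxd8 at 12.7, 5.80 and 15.2 CPM in Ctrl and 11.9, 3.82 and 12.7 CPM in TKO. Hoxd11 and Hoxd9 had log2 fold changes of -0.82 (SE 0.897) and -0.52 (SE 0.50). Without a library, these ran from -1.59 to -0.32 for Hoxd11 and from -0.72 to -0.25 for Hoxd9. The groups of both overlapped, and Hoxd11 reached the level of the filter in 3 Ctrl and 2 TKO libraries.

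**Figure D3:**
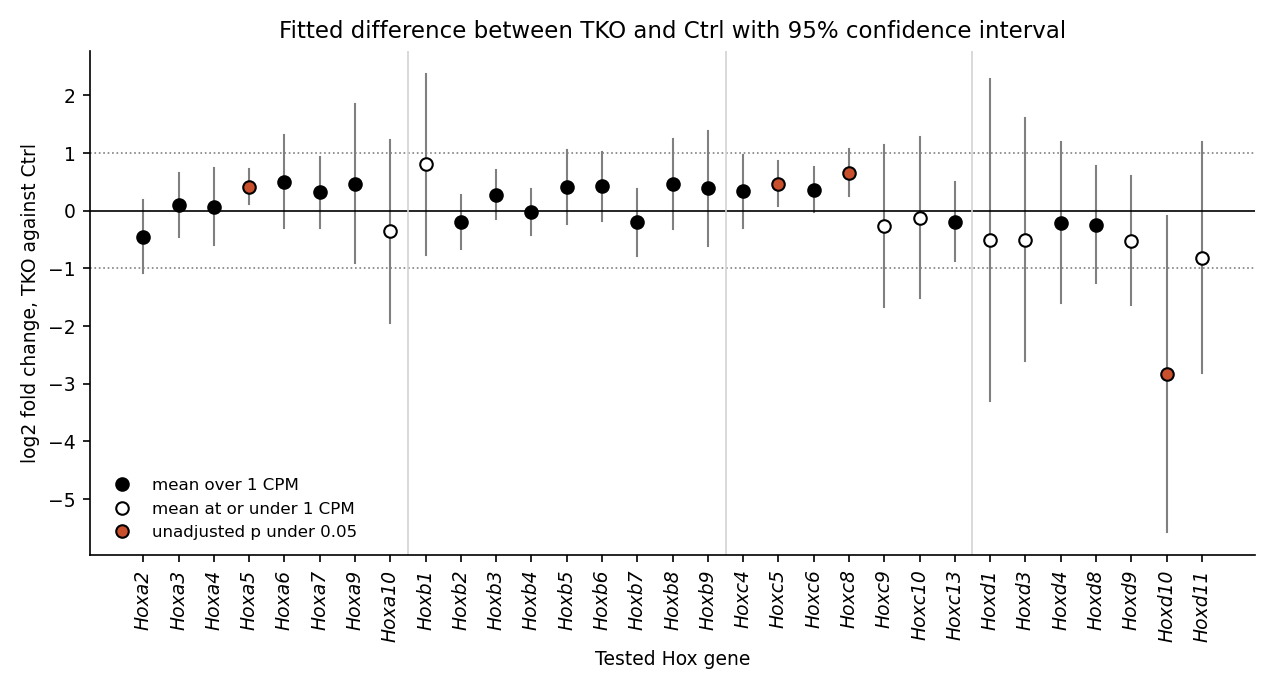
Fitted log2 fold change of TKO against Ctrl for 31 of the 32 tested Hox genes, with the 95% confidence interval as a bar, by cluster and paralog number. Filled points have a mean over 1 CPM, open points a lower mean and orange points an unadjusted p under 0.05. The widest intervals belong to Hoxd1 and Hoxd10, and nothing is read from the side of 0 on which the low members of cluster d lie, since Hoxd1, Hoxd3, Hoxd10 and Hoxd11 reached the filter in fewer TKO than Ctrl libraries.

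Members with higher levels had narrower intervals. For the 23 tested members over 1 CPM over all libraries, log2 fold changes ran from -0.45 to 0.66 with a median of 0.32 and SE from 0.136 to 0.623, and 16 were higher and 7 lower in TKO. For 13 of them the 95% interval lay within 1 either way, so that a log2 change of that size lay outside it. The 9 tested members at or under 1 CPM had SE from 0.50 to 1.25, and none of their intervals lay within 1 either way. Over all genes tested, 53.2% had an interval within 1 either way. Over the 32 tested members, Hoxd1, Hoxd3, Hoxd10 and Hoxd11 included, the median log2 fold change was 0.089, beside 0.013 for all genes tested, and it was 0.046 with the replicate block and ran from -0.078 without TKO replicate 3 to 0.28 without Ctrl replicate 3.

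By paralog number and by cluster, the differences are given as counts without a test. Of the 11 genes with numbers 5 to 8, 9 had a positive log2 fold change and the median was 0.42, beside 51.9% positive among all genes tested. That median was 0.17 without Ctrl replicate 2 and at least 0.33 without any other single library. Of the genes with numbers 1 to 4, 6 of 12 were positive with a median of 0.028, which was -0.016 with the replicate block and ran from -0.12 without TKO replicate 3 to 0.12 without TKO replicate 2. By cluster, 7 of 9 tested genes were positive in a (median 0.11), 6 of 9 in b (0.39) and 4 of 7 in c (0.34). For cluster d and the numbers 9 to 13 nothing is read from a count or a median, because Hoxd10 and Hoxd11 entered the fit with fewer TKO than Ctrl libraries over the filter. Hoxd1 and Hoxd3, with 3 Ctrl libraries and 1 TKO library over it, are among the 12 genes above with numbers 1 to 4. Nothing is read from that count and median either. Of the genes with these numbers, 3 of 4 were positive in cluster a, 2 of 4 in b, 1 of 1 in c and 0 of 3 in d. The median of cluster c was -0.061 without TKO replicate 3. That of cluster b was 0.16 without the same library and 0.16 without Ctrl replicate 2. That of cluster a reached 0.41 without Ctrl replicate 3.

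Hoxa7, the most abundant member, illustrates how the libraries differed within a group. It stood at 76.2, 38.6 and 72.2 CPM in Ctrl and 82.7, 54.0 and 96.3 CPM in TKO, with replicate 2 the lowest in both groups and a log2 fold change of 0.32 (SE 0.273). Hoxb8 stood at 37.3, 14.3 and 29.3 CPM in Ctrl and 36.0, 24.2 and 51.5 CPM in TKO, again lowest in replicate 2 of both groups, with a log2 fold change of 0.46 (SE 0.349). Hoxb9, at 11.9, 3.05 and 11.7 CPM in Ctrl and 15.6, 8.51 and 10.9 CPM in TKO, and Hoxd8 were lowest in replicate 2 of both groups as well. With the replicate block, the log2 fold change of Hoxb8 was 0.51 with an unadjusted p of 0.0263, and that of Hoxa7 was 0.34 with an unadjusted p of 0.0282. Hoxa6, at 7.13, 2.65 and 6.93 CPM in Ctrl and 8.55, 6.27 and 8.86 CPM in TKO, and Hoxb6, at 19.8, 8.59 and 13.8 CPM in Ctrl and 19.1, 16.2 and 21.1 CPM in TKO, had unadjusted p-values of 0.0433 and 0.0358 with the block. In fits without the block, the log2 fold changes of these genes moved when a library was left out and the other of its number was kept. The values that follow are of those fits and not of the blocked fit. Without Ctrl replicate 2, the log2 fold change was 0.065 for Hoxa7, 0.16 for Hoxb8, 0.17 for Hoxa6 and 0.16 for Hoxb6. Without TKO replicate 3 it was 0.13 for Hoxa7 and 0.16 for Hoxb8, and without Ctrl replicate 1 it was 0.77 for Hoxb8 and 0.75 for Hoxb6. Without TKO replicate 2 it was 0.52 for Hoxa7. The edgeR adjusted p with the block was 0.542 for Hoxb8 and 0.555 for Hoxa7.

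This order of libraries was followed along the 23 members over 1 CPM as the deviation of log2(CPM + 0.5) from the group mean. Among the 13 members with numbers 5 to 9, the lowest Ctrl library was replicate 2 for 12 and the lowest TKO library was replicate 2 for 8, and both held for 7. Their median deviation was -0.60 in Ctrl replicate 2 and -0.26 in TKO replicate 2. Among the 9 members with numbers 1 to 4, the median deviation was 0.052 in Ctrl replicate 2 and -0.22 in TKO replicate 2. Within Ctrl, 4 of these 9 were lowest in replicate 2 and 3 (Hoxa2, Hoxa4 and Hoxb2) were highest there, and replicate 2 was the lowest library of both groups for 3. TKO replicate 3 was the highest TKO library for 19 of 23 members. Over all 23, the lowest library was replicate 2 in both groups for 43.5% of members, beside 13.4% of the 14052 tested genes over 1 CPM.

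Other measures moved with these libraries. The summed immune markers, all 5 found, were 20.3, 41.1 and 12.3 CPM in Ctrl and 6.06, 71.5 and 17.6 CPM in TKO, with replicate 2 the highest in both groups and Csf1r the most abundant over the libraries. The fibroblast sum was highest in Ctrl replicate 2 within Ctrl but in TKO replicate 3 within TKO, and it was lowest in replicate 1 of both groups. Among the 9 Hox members with numbers 1 to 4 over 1 CPM, 5 were lowest in Ctrl replicate 1 and 5 in TKO replicate 1. Of the same 9, 3 were highest in Ctrl replicate 2 and 8 in TKO replicate 3. Hoxa2 and Hoxa4 had the order of the fibroblast sum in both groups. Ctrl replicate 2 also had the largest total count. Hnrnpa1 and Hnrnpa3, splicing factors beside clusters c and d that were picked after their values were seen, were highest in replicate 2 and lowest in replicate 3 in Ctrl and lowest in replicate 3 in TKO, at 524, 741 and 391 CPM in Ctrl and 721, 736 and 344 CPM in TKO for Hnrnpa3. The part of any of these in the Hox values was not tested.

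**Figure D4:**
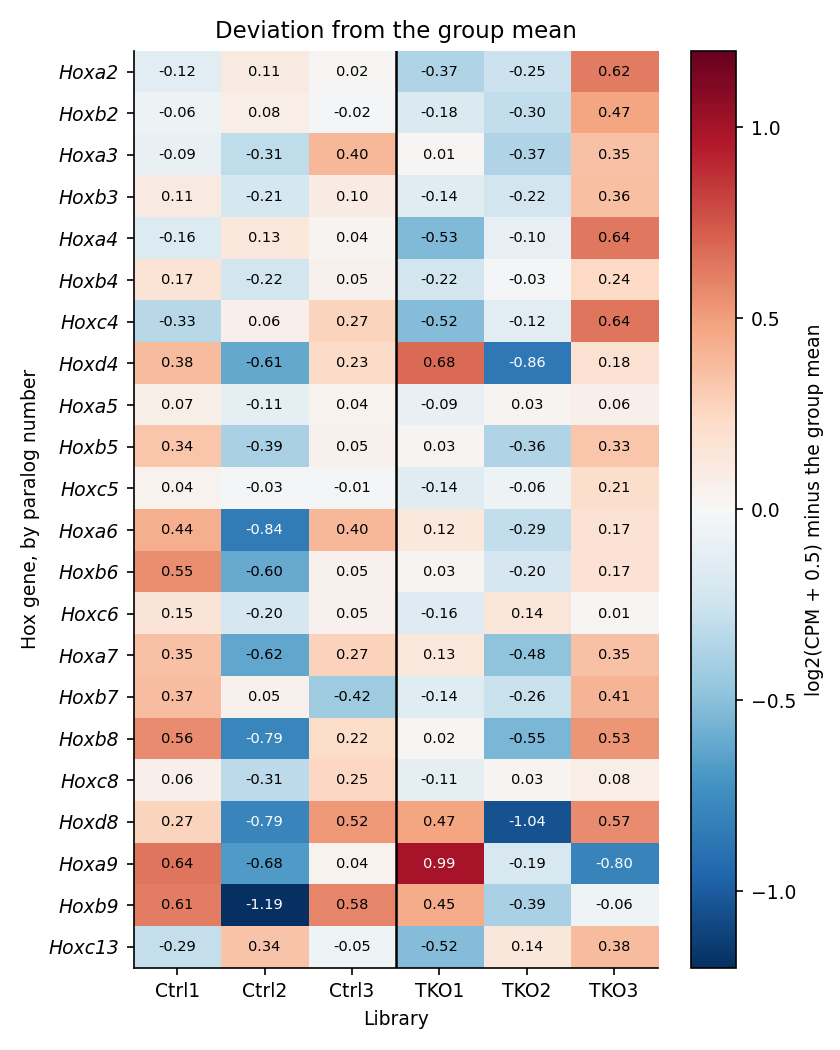
Deviation of log2(CPM + 0.5) from the group mean for 22 of the 23 Hox genes over 1 CPM, in paralog order (rows), in each library (columns). Blue cells of replicate 2 gather in the rows with numbers 5 to 9, and red cells of TKO replicate 3 run through most rows, Hoxa9 being blue there.

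Within the clusters lie noncoding genes and microRNAs. Of 27 such genes 14 were tested, none was called, and none had an unadjusted p under 0.05 in edgeR. Among all genes tested, 0.131% were called, and 4.06% were higher and 2.02% lower at that p. Gm53, a long noncoding RNA of cluster b near Hoxb9, was the most abundant at 16.2, 4.12 and 19.9 CPM in Ctrl and 26.1, 12.3 and 13.2 CPM in TKO, lowest in replicate 2 of both groups as Hoxb9 was. Hoxb3os, antisense to Hoxb3 and Hoxb2, stood at 13.8, 11.8 and 13.5 CPM in Ctrl and 13.5, 11.4 and 12.9 CPM in TKO, with overlapping groups. It overlaps 51.5% of the exon bases of Hoxb3 and 29.7% of those of Hoxb2, and without a stated strand setting the reads of the overlapping genes cannot be told apart. In all, 14 Hox genes share exon bases with a gene on the other strand and 9 with a gene on the same strand. Hoxc8 and Hoxa5 share none, and Hoxc5 shares 5.37% with Hoxc10.

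The 24 protein-coding genes that flank the clusters were the 3 nearest on each side, at whatever distance. Those said to lie beside a cluster can be far from it. Nfe2l2 starts at chr2:75504739, whereas cluster d ends at chr2:74595486. Of the 20 tested, none was called and 2 had an unadjusted p under 0.05, both higher in TKO, beside 0.131% called and 4.06% higher at that p among all genes tested. Snx10, a sorting nexin beside cluster a, stood at 1.18, 1.83 and 0.899 CPM in Ctrl and 2.73, 3.02 and 1.70 CPM in TKO, with a log2 fold change of 0.93 (SE 0.396). Nfe2l2, the regulator of the oxidative stress response beside cluster d, stood at 49.9, 57.6 and 67.0 CPM in Ctrl and 64.9, 79.9 and 79.6 CPM in TKO, with a log2 fold change of 0.36 (SE 0.153). Among the flanking genes, 3 encode HP1 proteins, which bind methylated H3K9. Cbx3 beside cluster a, Cbx1 beside cluster b and Cbx5 beside cluster c had log2 fold changes of -0.13 (SE 0.233), 0.026 (SE 0.136) and 0.040 (SE 0.158). They are named after their values were seen.

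Partners and regulators of Hox genes were followed by lists. Beside them, 0.131% of all genes tested were called in the edgeR fit without the block. At an unadjusted p under 0.05 in that fit, 4.06% were higher and 2.02% lower in TKO. Of 9 cofactors of the TALE homeodomain family, which bind DNA with Hox proteins, none was called and Meis1 alone had an unadjusted p under 0.05, at 16.3, 14.9 and 18.6 CPM in Ctrl and 21.7, 20.6 and 20.7 CPM in TKO. Its log2 fold change was 0.34 (SE 0.150), with an unadjusted p of 0.0483, and the median of the list was -0.050. Of 25 Polycomb genes none was called, 14 had positive and 11 negative log2 fold changes, and all 25 had intervals within 1 either way. Phc3, a polyhomeotic subunit of the canonical Polycomb repressive complex, was the member with an unadjusted p under 0.05, at 64.0, 65.3 and 75.1 CPM in Ctrl and 92.9, 86.3 and 90.2 CPM in TKO, with a log2 fold change of 0.40 (SE 0.124) and an unadjusted p of 0.00977. The median over the Polycomb list was 0.018. None of 10 Trithorax and related activators had an unadjusted p under 0.05, and 5 were positive and 5 negative with a median of -0.00085 (0.050 with the replicate block), with Kmt2a, the methyltransferase that keeps Hox genes on, at 238, 161 and 257 CPM in Ctrl and 289, 265 and 274 CPM in TKO and a log2 fold change of 0.34 (SE 0.179). With the block the unadjusted p of Kmt2a was 0.0373.

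Of the retinoic acid list 15 of 18 genes were tested, 4 with positive and 11 with negative log2 fold changes and a median of -0.088. Aldh1a1, which makes retinoic acid from retinaldehyde, stood at 2.15, 2.17 and 2.14 CPM in Ctrl and 0.926, 0.688 and 1.01 CPM in TKO. All TKO values were under the Ctrl values, with a log2 fold change of -1.30 (SE 0.344), an adjusted p of 0.339 in edgeR and of 0.0134 in DESeq2, which called it. Rdh10, which makes retinaldehyde from retinol, was higher at an unadjusted p of 0.0402 with the replicate block and 0.0737 without it. Rxra, the most abundant of the list, stood at 496, 414 and 505 CPM in Ctrl and 451, 407 and 517 CPM in TKO. Of 20 other homeobox genes of skin 19 were tested, 7 with positive and 12 with negative log2 fold changes and a median of -0.064 (-0.15 with the replicate block). Among them Hopx, an atypical homeodomain protein that does not bind DNA, had higher TKO values, at 2.80, 3.44 and 1.65 CPM in Ctrl and 8.16, 13.2 and 5.83 CPM in TKO. Its log2 fold change was 1.78 (SE 0.373), with an adjusted p of 0.182 in edgeR, 0.0305 with the replicate block and 0.000169 in DESeq2, so that both alternatives called it and the edgeR fit without the block did not. Irx1 was lower at an unadjusted p of 0.0172 with the block and 0.0839 without it. Irx2, the most abundant, stood at 296, 295 and 314 CPM in Ctrl and 330.2, 320.4 and 350.2 CPM in TKO.

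Homeobox relatives that lie beside or descend with the Hox clusters had few counts. Of 13 ParaHox, Evx and related genes 2 were tested, Meox1 and Meox2, and Evx1 and Evx2 at the posterior ends of clusters a and d had Ctrl means of 0 and 0.0361 CPM. Of 8 limb and positional factors 5 were tested. Tbx4, Tbx5 and Pitx1 were near the floor, with Ctrl means of 0.0433 CPM for Tbx4, 0.0561 CPM for Tbx5 and 0.0679 CPM for Pitx1. Lmx1b, which sets dorsal identity in the limb, was the most abundant of that list at 35.5, 20.7 and 33.5 CPM in Ctrl and 17.1, 13.3 and 31.9 CPM in TKO, with a log2 fold change of -0.53 (SE 0.319) and no call. Its unadjusted p was 0.131 without and 0.0149 with the replicate block.

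The bases before the start of the genes were read from GRCm39 for the canonical transcripts of GENCODE vM39. In the 250 bases before the start, Hox genes held a median of 12 CpG dinucleotides (1 to 43), beside 8 for 21571 genes, and the median G and C content was 58.0% beside 53.2%. Members over 1 CPM in Ctrl had a median of 11 CpG and the other 16 a median of 13.5. Of the sequence searches on either strand, TATAAA was present before 6 Hox genes (15.4%, beside 11.9% of all), TGATTNAT before 3 (7.69% beside 2.56%) and TAATTA before none (beside 5.18%). Such matches describe letters in this window only. The stretches of Hoxa5 and Hoxc8 are printed because these members, which both had higher TKO values, lie far apart in CpG count, at 28 and 1. CpG is in capitals.
Hoxa5 (chr6:52181568-52181817, - strand): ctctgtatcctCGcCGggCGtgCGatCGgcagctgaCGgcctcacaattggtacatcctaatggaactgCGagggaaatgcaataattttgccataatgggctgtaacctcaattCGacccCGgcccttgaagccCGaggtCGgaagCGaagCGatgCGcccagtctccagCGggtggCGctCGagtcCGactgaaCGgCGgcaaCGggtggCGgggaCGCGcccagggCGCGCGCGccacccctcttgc
Hoxc8 (chr15:102898601-102898850, + strand): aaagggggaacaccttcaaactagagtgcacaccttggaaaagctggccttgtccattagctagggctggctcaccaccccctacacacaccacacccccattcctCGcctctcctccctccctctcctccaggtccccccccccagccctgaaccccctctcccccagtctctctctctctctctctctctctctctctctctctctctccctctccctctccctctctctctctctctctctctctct

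MicroRNAs encoded in the Hox clusters pair with the 3′ UTRs of Hox messages, and the mature sequences from RefSeq are given with the seed (bases 2 to 8) in capitals. Mature microRNAs were not measured by this assay. The counts over the precursor genes were 5 to 179 for Mir196a-1, 21 to 112 for Mir10a and 0 in all libraries for Mir196a-2, Mir196b and Mir10b.
mmu-miR-196a-5p: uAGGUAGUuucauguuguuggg
mmu-miR-196b-5p: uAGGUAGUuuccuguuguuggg
mmu-miR-10a-5p: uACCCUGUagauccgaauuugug
mmu-miR-10b-5p: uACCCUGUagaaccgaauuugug

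The seed match of miR-196, ACTACCT, was present in the 3′ UTR of 8 of 39 Hox genes (20.5%), beside 6.72% of 20738 genes. Of the 8, 7 were over 1 CPM in Ctrl (Hoxa4, Hoxa5, Hoxa7, Hoxa9, Hoxb6, Hoxb7 and Hoxc8, the eighth being Hoxb1), beside 23 of all 39. A link of the matches with level or with TKO was not tested. The seed match of miR-10, ACAGGGT, was present in 4 (10.3% beside 14.3%). Of the 3 members with higher values at a p under 0.05, Hoxc8 and Hoxa5 held a miR-196 match, and Hoxc5 did not. Hoxb8 held no exact seed match but the longest pairing, with 21 of 22 bases complementary to miR-196a, beside at most 15 in any other Hox 3′ UTR, where windows were compared without gaps. Only A with U and G with C were counted as paired. The base of Hoxb8 not counted is a G opposite a U of the seed, of which 6 bases were counted as paired. Sites are shown in GRCm39 with paired bases in capitals, for Hoxb8, for both sites of Hoxc8, for that of Hoxa5 and for 1 of the 4 of Hoxa7.
Hoxb8 (chr11:96175714-96175735, + strand): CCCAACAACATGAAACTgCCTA
Hoxc8 (chr15:102901408-102901429, + strand): CaCtcacAacTctAACTACCTg
Hoxc8 (chr15:102902165-102902186, + strand): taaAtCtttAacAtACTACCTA
Hoxa5 (chr6:52179098-52179119, - strand): atatttttatTcAAACTACCTA
Hoxa7 (chr6:52192190-52192211, - strand): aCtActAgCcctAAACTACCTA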

How the data were processed

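RNA was measured in 3 Ctrl and 3 TKO libraries. The authors depleted rRNA, sequenced paired ends, trimmed with fastp, aligned with STAR and deposited a table of raw counts, with Ensembl genes as rows, 1 column per library and no normalization. The study's methods name GRCm39 and the submitters' processing notes GRCm38, and the counting program, annotation and strand setting are not given in the sources used here. Of 55536 genes, 51477 matched GENCODE vM39 by Ensembl identifier, which held 86.4% to 94.1% of the counts of each library. Symbols, exon lengths, positions, homeoboxes, upstream bases and 3′ UTRs came from that annotation on GRCm39, and microRNA sequences from RefSeq.

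Genes were filtered with filterByExpr (minimum count 10, minimum total 15), scaled by TMM and tested with edgeR 4.0.16 (glmQLFit robust, glmQLFTest) in R 4.3.3, with Benjamini-Hochberg adjustment over 20622 genes. Intervals are 95% intervals of the fit. Values in CPM use TMM-normalized library sizes. The script was tested on simulated data. Alternatives were DESeq2 1.42.0, RLE factors, no filter, at least 10 counts in every library, a replicate block, sex as a covariate, no robust estimation, no fold threshold and each library left out in turn.

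Hox genes were named when they were among the 12 highest per kb, had an unadjusted p under 0.05 or had the 3 highest or lowest log2 fold changes. Genes of the other lists were named when called or at an unadjusted p under 0.05, or when among the most abundant. Medians by paralog number without a library or with the block were added after seeing the data. Other named genes were picked after their values were seen. One Hox gene, 1 gene of the cofactor list and some sequences are not reported here. The members and lists were chosen with earlier results of these data known. The planned comparison of homeodomain proteins was made on homeobox bases instead.

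The labels number replicates 1 to 3 in each group without saying that a number marks a litter or day. In the running sample codes of the columns, libraries of the same number stand next to each other. Deviations from the group mean correlated over genes at 0.188, 0.187 and 0.272 between libraries of the same number and at -0.243 to 0.0191 between others. The numbers were therefore taken to pair the samples, from these same data and not from a statement in the labels. The main fit was made without a block, so its p-values, SE and intervals do not use that pairing. The fit with the block is given where it moved a call, a count at an unadjusted p under 0.05 or the sign of a median printed here.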

Additional observations from a re-analysis of the deposited data

How the results depend on the processing

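No Hox gene was called under any of the 14 alternatives. The number of genes called, 27, became 214 with DESeq2, 235 without the low-count filter, 9 with at least 10 counts in every library and 45 with the replicate block, and ran from 7 to 81 over the fits without a library. Hox genes with higher TKO values at an unadjusted p under 0.05, 3, became 7 with the replicate block and 2 to 4 without a library. The count with lower values is given for completeness and nothing is read from it, since its 1 member, Hoxd10, passed the filter through Ctrl alone. It became 0 without the low-count filter, with at least 10 counts in every library (which leaves Hoxd10 out) and with sex as a covariate, and ran from 0 to 3 without a library. Called genes in the pathway lists, 0, became 2 with DESeq2 (Aldh1a1 and Hopx), 1 without the low-count filter and 1 with the replicate block (Hopx). The block changed no other call among the Hox genes and lists.

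Over the tested Hox genes, the median log2 fold change ran from -0.078 to 0.28 without a library, that of cluster a from 0.044 to 0.41, that of b from 0.16 to 0.61 and that of c from -0.061 to 0.43. For cluster d the median, -0.51, was -0.55 without the low-count filter and -0.24 with at least 10 counts in every library. It was -1.02 with the replicate block and -0.74 to -0.25 without a library. Hoxd1, Hoxd3, Hoxd10 and Hoxd11 reached the filter in fewer TKO than Ctrl libraries. The part of the filter in this median was not tested, and nothing is read from the median. Single members near 0 changed sign: Hoxa4 was at -0.014 with the replicate block and ran from -0.34 to 0.31 without a library, Hoxb4 from -0.15 to 0.083, Hoxb7 from -0.45 to 0.0084 and Hoxc4 from -0.061 to 0.56. The cause of these moves was not tested. With 3 libraries a group and a biological coefficient of variation of 36.5%, members at or under 1 CPM carry SE of 0.50 or more, and intervals cover counting and library spread only.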
